A study of Homo sapiens with 6 samples.

Results

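D-type cyclins, their partner kinases CDK4 and CDK6, the CDK inhibitors that restrain them and the related cyclin CCNG2 were examined in ARPE-19 cells given SRPIN803. ARPE-19 is a human cell line that arose from the retinal pigment epithelium. SRPIN803 is a compound known to inhibit the protein kinases SRPK1, which acts on SR splicing factors, and CK2. Members were the probe sets, the groups of short array probes summarised to 1 value, whose platform annotation names 1 gene from a list of 10. CCND1, CCND2, CCND3, CDK4, CDK6, CDKN1B, CDKN1C, CDKN2B and CCNG2 had 29 such probe sets of 54613 in all, and CDKN2C, with 0 probe sets under this rule, was not analysed here. These 9 genes stand beside 19775 genes in the whole table.

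Both groups were ARPE-19 cells grown in medium with 10% fetal bovine serum. The 3 DMSO arrays came from cells given 0.1% DMSO for 4 h and the 3 SRPIN803 arrays from cells given 10 µM SRPIN803 for 4 h. Whether replicates were separate cultures is not stated in the labels, and the spread behind each p-value may therefore be technical. Of 9 markers of retinal pigment epithelium, 8 lay above the median level of all probe sets (5.26 on the log2 scale), MITF at 10.05 and OTX2 at 10.39 in DMSO among them, while the visual cycle enzyme gene RPE65 lay below it at 2.42 in DMSO and 2.24 in SRPIN803. The epithelial keratin genes KRT8 and KRT18 were at 12.17 and 13.78 in DMSO, while the epithelial marker CDH1 lay below the median level at 4.08. Of 3 endothelial markers only PECAM1 lay above the median level, and the leukocyte markers PTPRC and CD14 lay below it. Of 4 mesenchymal markers 3 lay above it, VIM at 14.48 among them. Among all 21 measured markers limma called 0, and 2 had an unadjusted p under 0.05 (MITF and OTX2, both with higher means in SRPIN803).

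D-type cyclins are made in response to growth signals and bind CDK4 or CDK6. The active kinases phosphorylate the retinoblastoma protein, which frees E2F factors to switch on genes for DNA replication. CDKN2B and CDKN2C encode p15 and p18, inhibitors of the INK4 kind that bind CDK4 and CDK6, whereas CDKN1B and CDKN1C encode p27 and p57, which bind a wider range of cyclin and CDK complexes. CCNG2 encodes cyclin G2, an unconventional cyclin linked to cell cycle arrest, and is known as a target of FOXO transcription factors.

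After SRPIN803, CCNG2 rose, by about 2-fold on its brightest probe set, and the other 8 measured genes had no probe set past the threshold. Of the 29 member probe sets 4 were called, meaning limma's Benjamini-Hochberg adjusted p over all probe sets was under 0.05, and all of those 4 were higher and belonged to CCNG2. Over all 54613 probe sets, 2.22% were called in either direction, 1.19% were called higher and 1.03% lower. Taking for each gene its main probe set, the brightest over all 6 arrays, 1 of 9 members was called, against 2.92% of the 19775 genes (1.71% higher and 1.21% lower). The members' main probe sets had a median log2 change of -0.01, and that of all genes was 0.02.

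**Figure D1:**
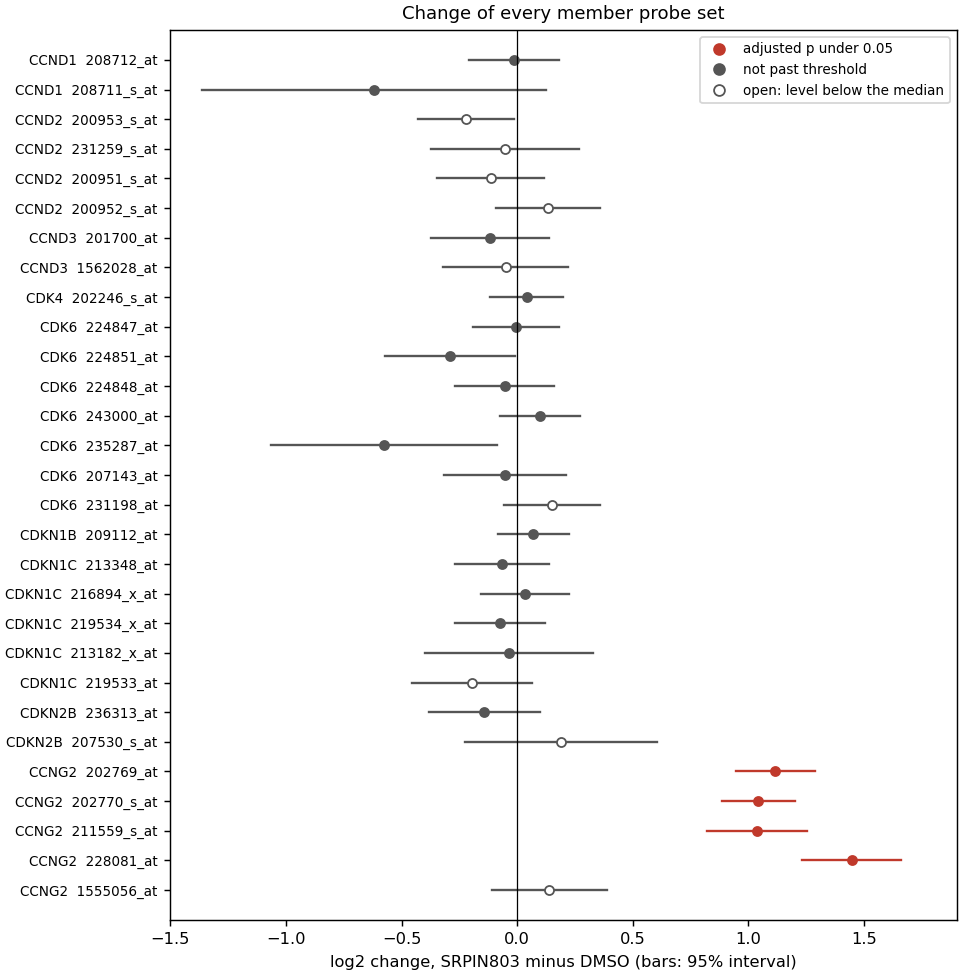
Log2 change from DMSO to SRPIN803 (x axis) of each of the 29 member probe sets (y axis), with limma's 95% intervals as bars, from 3 arrays per group. Red points passed an adjusted p of 0.05, and open points lie below the median level of 5.26. The 4 red points, between 1.04 and 1.45, are all of CCNG2, and the 24 probe sets of the other genes lie between -0.62 and 0.19.

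Promoter windows of 2 members from the RefSeq gene models (GRCh38.p14) are shown because CCNG2 was the member that rose and CDK4, which was not called, holds the same motif more often. Each is the 250 bases before the annotated start, 5′ to 3′ on the gene's strand, with matches to the E-box CACGTG in capitals.
CCNG2, chr4:77156957-77157206, plus strand: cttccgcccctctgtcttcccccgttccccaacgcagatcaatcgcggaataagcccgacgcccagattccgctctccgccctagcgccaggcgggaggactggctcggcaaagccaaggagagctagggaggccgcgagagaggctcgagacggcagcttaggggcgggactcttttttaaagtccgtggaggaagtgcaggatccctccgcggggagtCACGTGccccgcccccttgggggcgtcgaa
CDK4, chr12:57752311-57752560, minus strand: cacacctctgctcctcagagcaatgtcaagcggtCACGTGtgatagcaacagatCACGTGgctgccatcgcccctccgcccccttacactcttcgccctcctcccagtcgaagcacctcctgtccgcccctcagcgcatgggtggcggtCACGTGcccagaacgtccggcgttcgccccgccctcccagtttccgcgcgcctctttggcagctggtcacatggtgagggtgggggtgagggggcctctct

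The CCNG2 window holds 1 match to CACGTG, which begins 30 bases before the start, and the CDK4 window holds 3, which begin 216, 196 and 101 bases before it. This palindromic motif occurs in 6.32% of 34943 promoter windows of the same length. It did not match in the windows of CCND3, CDK6, CDKN1B and CDKN2B. A further 3 motifs were searched on both strands in the 9 windows of the 6 measured members that had one (CCND3, CDK4, CDK6, CDKN1B, CDKN2B and CCNG2). These were GTAAACA, a forkhead core found in 2.98% of all windows, TTTNNCGC, an E2F-like core found in 5.89%, and TGANTCA, an AP-1-like core found in 6.59%. None of the 3 matched in those 9 windows, which says only that these letters are not there. CDKN2C, not analysed here on the arrays, has 3 windows, and 2 of them hold 1 CACGTG each. A match is a description of the sequence, and binding was not measured in these data.

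CCNG2, which lies at chromosome 4, 77157207 to 77170060 in GRCh38.p14, had its main probe set 202769_at at 9.72, 9.74 and 9.71 in the DMSO arrays and at 10.79, 10.78 and 10.95 in the SRPIN803 arrays (log2 signal, replicates 1 to 3). All 3 treated arrays lay above all 3 controls. The log2 change was 1.12 ± 0.07 (limma's standard error, n = 3 per group), a 2.17-fold rise with a 95% interval of 1.93 to 2.44 and limma's adjusted p = 0.000989. Among the main probe sets of all 19775 genes this was the 18th largest rise, and 28 genes were called at a rise of 2-fold or more.

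The second brightest CCNG2 probe set, 202770_s_at, read 8.90, 8.97 and 8.92 in DMSO and 9.95, 9.94 and 10.04 in SRPIN803, a log2 change of 1.04 ± 0.07 (2.06-fold, 1.85 to 2.30). Probe set 211559_s_at read 8.06, 8.10 and 8.10 in DMSO and 8.98, 9.30 and 9.08 in SRPIN803, a change of 1.04 ± 0.09 (2.05-fold, 1.76 to 2.38). Probe set 228081_at read 6.24, 6.43 and 6.55 in DMSO and 7.80, 7.83 and 7.93 in SRPIN803, a change of 1.45 ± 0.09 (2.72-fold, 2.35 to 3.16). In each of these the groups did not overlap, and limma's adjusted p was 0.000989 for 202770_s_at and 228081_at and 0.00375 for 211559_s_at. Leaving out any 1 array kept all 4 of these CCNG2 calls, at log2 changes of 0.94 to 1.51 and adjusted p up to 0.0298.

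The fifth CCNG2 probe set, 1555056_at, lay below the median level and its groups overlapped. It read 4.62, 5.00 and 4.65 in DMSO and 4.90, 4.86 and 4.93 in SRPIN803, a change of 0.14 ± 0.11 (adjusted p = 0.621). RMA values, the authors' summary of the probes, can compress the changes of dim probe sets, and whether this bears on 1555056_at was not tested. The sources used here do not give where in the transcript each probe set lies.

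The 4 brighter CCNG2 probe sets moved apart from each other by limma's diffSplice test (Simes adjusted p = 0.0369), which asks whether the probe sets of 1 gene change unequally. The test called 3.36% of 5535 genes. Probe set 228081_at rose by 0.38 more on the log2 scale than the rest of the gene (adjusted p = 0.0291 over probe sets). This call was lost in most fits with 1 array left out. Without any 1 array other than SRPIN803 replicate 2 the adjusted p was 0.0649 to 0.273, and without SRPIN803 replicate 2 it was 0.0338. Such fits have fewer arrays, and in them limma's calls over all probe sets also fell, from 1214 to between 215 and 716. The diffSplice call of CCNG2 was also lost with each array centred on its median (adjusted p = 0.0529).

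**Figure D2:**
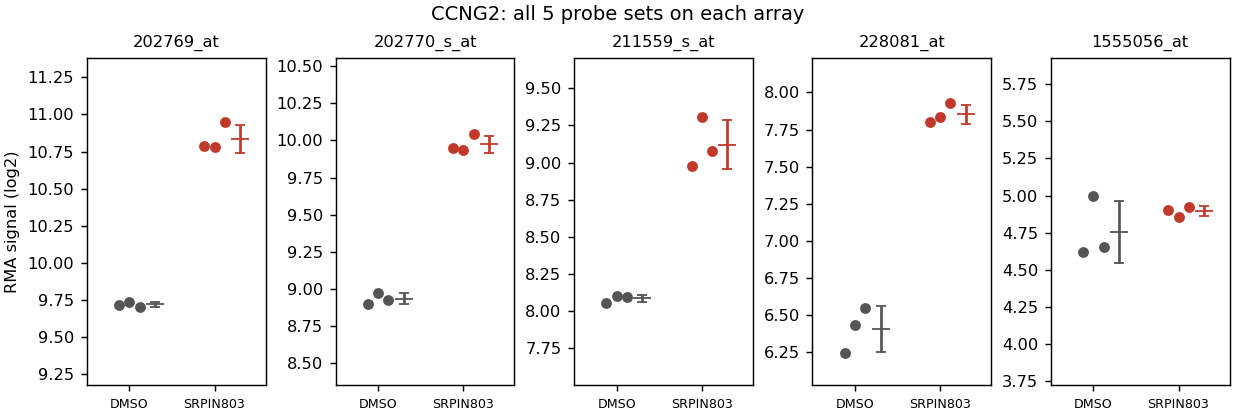
RMA signal (y axis, log2) of the 5 CCNG2 probe sets on each of the 6 arrays, grouped by treatment (x axis), with the mean and SD of 3 arrays beside the points. In the first 4 panels every SRPIN803 array lies above every DMSO array, and in 1555056_at the groups overlap. All panels span the same range of 2.2 log2 units.

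The genes most like CCNG2 in their pattern were HCP5 and ARRDC4. Likeness was the root-mean-square difference over the 6 arrays between log2 values centred on each gene's own mean, searched over 12626 genes with a main probe set at or above the median level. It was 0.07 for HCP5, an RNA gene of the HLA region, and 0.08 for ARRDC4, an alpha-arrestin gene. HCP5 changed by a log2 of 1.22 ± 0.07 and ARRDC4 by 1.08 ± 0.08, both called. Both were picked for likeness over the same arrays, so a similar rise follows from the choice.

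The D-type cyclin genes had no called probe set among 8. CCND1, which encodes cyclin D1, had its main probe set 208712_at at 11.79, 11.74 and 11.97 in DMSO and at 11.75, 11.86 and 11.86 in SRPIN803, so the groups overlapped. The log2 change was -0.01 ± 0.08 (adjusted p = 0.969), and its 95% interval of -0.21 to 0.18 corresponds to a fold of 0.866 to 1.13. The sign of this small change turned without DMSO replicate 3 or SRPIN803 replicate 1.

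The other CCND1 probe set, 208711_s_at, read 10.93, 11.12 and 11.16 in DMSO and 10.85, 9.58 and 10.92 in SRPIN803. SRPIN803 replicate 2 lay 1.27 below the next lowest array, while the other 2 treated arrays lay just below the lowest control. The change was -0.62 ± 0.32 (adjusted p = 0.419) with all arrays and -0.19 without SRPIN803 replicate 2. The test for unequal change between the CCND1 probe sets did not pass (Simes adjusted p = 0.438).

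CCND2, which encodes cyclin D2, had all 4 probe sets below the median level. The brightest, 200953_s_at, read 5.09, 5.17 and 5.31 in DMSO and 5.05, 5.01 and 4.85 in SRPIN803, and the groups did not overlap. Its change was -0.22 ± 0.09 (limma's adjusted p = 0.284), and the other 3 lay between -0.11 and 0.13. CCND3, which encodes cyclin D3, had 201700_at at 8.33, 8.04 and 8.34 in DMSO and at 8.27, 8.11 and 7.98 in SRPIN803, with overlapping groups. Its change was -0.12 ± 0.11 (adjusted p = 0.698), and that of its dim probe set 1562028_at was -0.05 ± 0.12.

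The kinase genes CDK4 and CDK6 had no called probe set among 8. The 1 CDK4 probe set, 202246_s_at, read 11.06, 10.97 and 11.11 in DMSO and 11.09, 11.07 and 11.11 in SRPIN803, a change of 0.04 ± 0.07 (adjusted p = 0.851). Its 95% interval corresponds to a fold of 0.921 to 1.15. The main probe set of CDK6, 224847_at, read 11.91, 11.94 and 12.01 in DMSO and 11.82, 12.01 and 12.03 in SRPIN803, a change of -0.01 ± 0.08 (adjusted p = 0.987). In both genes the groups overlapped, and the sign for CDK6 turned without DMSO replicate 3 or SRPIN803 replicate 1.

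CDK6 had 7 probe sets, 5 with lower and 2 with higher means in SRPIN803. Among these, 2 were low on 1 treated array. Probe set 235287_at read 6.31, 6.71 and 6.60 in DMSO and 6.20, 5.46 and 6.24 in SRPIN803, a change of -0.58 ± 0.21 (adjusted p = 0.238), or -0.32 without SRPIN803 replicate 2. Probe set 224851_at read 11.49, 11.59 and 11.55 in DMSO and 11.39, 10.96 and 11.39 in SRPIN803, a change of -0.29 ± 0.12 (adjusted p = 0.302), or -0.15 without that array. The groups did not overlap in either, nor in the dim probe set 231198_at, whose mean was higher by 0.15 ± 0.09 (adjusted p = 0.494). The remaining 3 CDK6 probe sets lay between -0.05 and 0.10. The test for unequal change between CDK6 probe sets gave a Simes adjusted p of 0.150.

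SRPIN803 replicate 2 stood alone in this way in other genes too. At a gap of 0.4, chosen after the member values were seen, it was the lowest array by more than that gap in 644 of 27307 probe sets above the median level (2.36%). For the other 5 arrays this held in 4 to 65 probe sets. The 3 member probe sets concerned were 208711_s_at of CCND1 and 235287_at and 224851_at of CDK6. On that array the actin controls differed by -1.46 (5′ minus 3′ end, log2), a measure that tracks RNA quality, and over all 6 arrays the range was -2.16 to -1.41. Lower values mean less signal at the 5′ end relative to the 3′ end, and only DMSO replicate 3 was higher than SRPIN803 replicate 2. With that actin difference as a covariate the change of 208711_s_at was -0.62, and with array weights it was -0.57, beside -0.62 in the main fit. Beyond these fits, the part of the quality of SRPIN803 replicate 2 in these values was not tested.

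**Figure D3:**
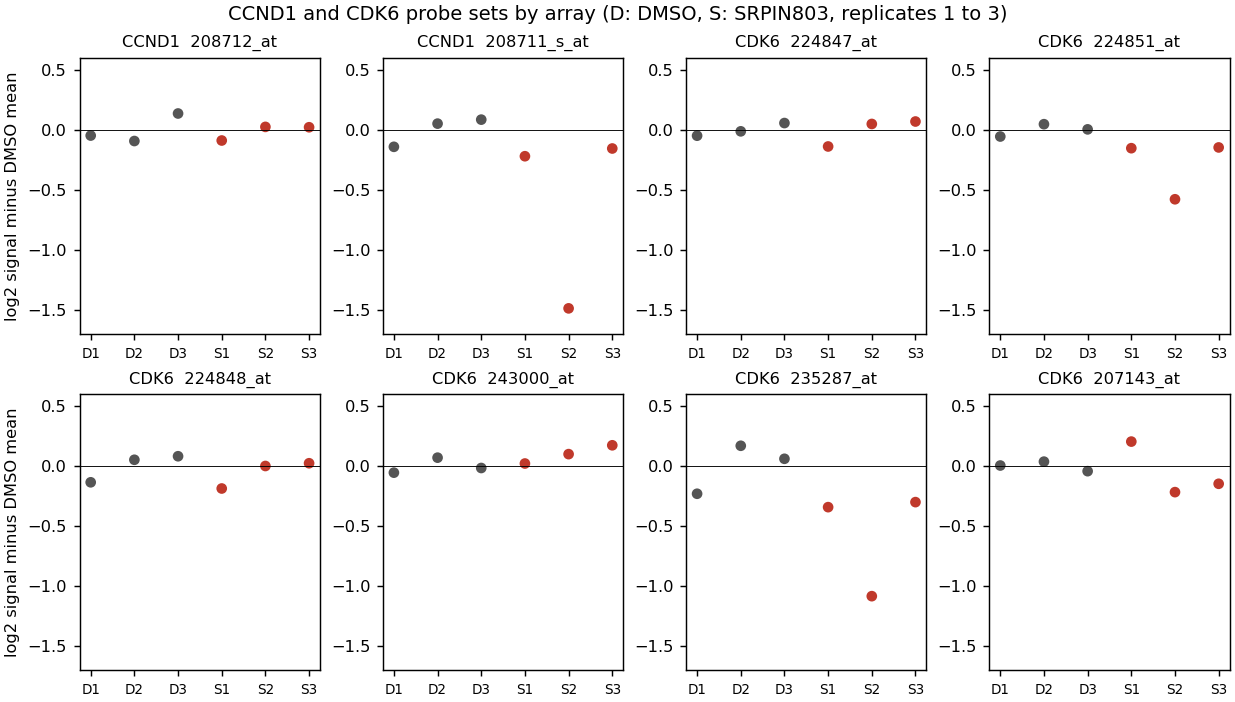
Log2 signal minus the mean of the 3 DMSO arrays (y axis) on each array (x axis, D for DMSO and S for SRPIN803, replicates 1 to 3) for the 2 CCND1 and 6 CDK6 probe sets above the median level. SRPIN803 replicate 2 lies alone below the other arrays in CCND1 208711_s_at and in CDK6 235287_at and 224851_at. In the main probe sets 208712_at and 224847_at it does not.

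The CDK inhibitor genes had no called probe set among 8. CDKN1B, which encodes p27, had its 1 probe set, 209112_at, at 10.48, 10.43 and 10.50 in DMSO and at 10.50, 10.52 and 10.59 in SRPIN803. The treated arrays lay just above the controls, with a change of 0.07 ± 0.07 (adjusted p = 0.701) and a 95% interval in fold of 0.943 to 1.17. CDKN2B, which encodes p15, had 236313_at at 9.66, 9.98 and 9.86 in DMSO and at 9.55, 9.74 and 9.78 in SRPIN803, a change of -0.14 ± 0.10 (adjusted p = 0.591) with overlapping groups. Its dim probe set 207530_s_at was at 0.19 ± 0.18, and the mean of both gave a change of 0.02.

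CDKN1C, which encodes p57, had 5 probe sets with changes between -0.20 and 0.03. The brightest, 213348_at, read 6.23, 6.30 and 6.41 in DMSO and 6.15, 6.38 and 6.22 in SRPIN803, a change of -0.06 ± 0.09 (adjusted p = 0.804). The groups overlapped in all 5. Of these, 3 end in _x_at, a suffix for probe sets whose probes may also match other transcripts.

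**Figure D4:**
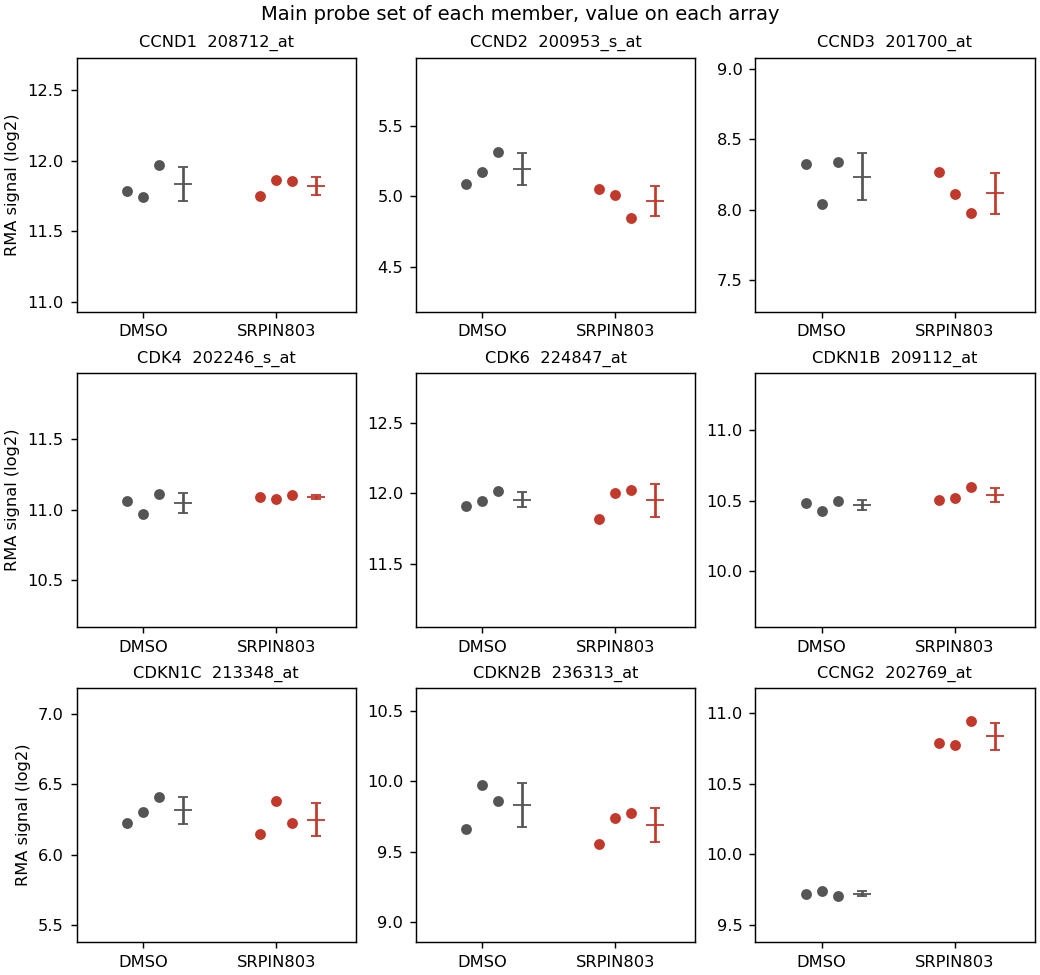
RMA signal (y axis, log2) of the main probe set of the 9 measured members on each array, by treatment (x axis), with the mean and SD of 3 arrays beside the points. Every panel spans 1.8 log2 units. CCNG2 moves from a DMSO mean of 9.72 to 10.84, and the other 8 change by -0.22 to 0.07.

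Over the 8 members not called, the 95% intervals of the main probe sets lay between log2 changes of -0.43 and 0.22, or folds of 0.743 to 1.17. Of the 25 member probe sets not called, 22 had an interval inside a 1.5-fold change either way. The exceptions were 208711_s_at of CCND1, 235287_at of CDK6 and 207530_s_at of CDKN2B. Groups did not overlap in 10 of the 29 member probe sets, 6 of them higher and 4 lower, against 21.5% of all probe sets (11.3% higher and 10.1% lower). For main probe sets this held in 3 of 9, CCNG2 and CDKN1B higher and CCND2 lower, against 25.6% of all genes (15.2% higher and 10.4% lower). RMA normalizes between arrays, so a change in total RNA per cell would not appear in these values.

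The main probe sets of 45 other genes of the pathway, in 6 lists, were examined. Of these, 3 fell (E2F5, E2F7 and EGR1) and 0 rose. Of all genes, 2.92% were called in either direction, 1.71% higher and 1.21% lower. Their median log2 change was 0.03, beside 0.02 for all genes. Groups did not overlap in 18 of the 45 genes, 9 in each direction, against the same 25.6% of all genes. By limma, 19 of the 45 (42.2%) had an unadjusted p under 0.05, against 17.1% of all genes. They include 7 of 13 pocket proteins and E2F factors and 3 of 9 transcription factors. However, 42 of the 45 lay above the median level, against 12627 of 19775 genes, and whether level bears on these shares was not tested.

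Among pocket proteins and E2F factors 2 of 13 fell. E2F5, one of the E2F factors that act mainly with pocket proteins to repress, read 8.04, 8.18 and 8.14 in DMSO and 7.31, 7.54 and 7.43 in SRPIN803, a change of -0.69 ± 0.08 (adjusted p = 0.0104). E2F7, an atypical E2F that represses without a pocket protein, read 10.57, 10.53 and 10.54 in DMSO and 10.17, 10.01 and 9.80 in SRPIN803, a change of -0.56 ± 0.10 (adjusted p = 0.0359). Treated arrays lay below all controls in both. The dim second probe sets of E2F5 and E2F7 were at -0.05 and -0.12. E2F5 lost its call without DMSO replicate 2 or 3 (adjusted p up to 0.0600), and E2F7 without any 1 array other than SRPIN803 replicate 1 (up to 0.132). E2F7 also lost it with the replicate number as a block (adjusted p = 0.0806) and with the mean of its probe sets (-0.34, adjusted p = 0.0815). By that mean E2F5 stayed called, at -0.37 (adjusted p = 0.0156). RB1, the retinoblastoma gene, was at 0.19 ± 0.08 (adjusted p = 0.275), but the mean of all its probe sets was at -0.29. That mean includes 211540_s_at, which lay below the median level and was at -0.77 (not called).

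Among 9 transcription factors known to act on member genes, EGR1 fell, an early growth response factor. It read 8.14, 8.38 and 8.25 in DMSO and 7.11, 7.61 and 7.60 in SRPIN803, a change of -0.82 ± 0.14 (limma's adjusted p = 0.0324). The other EGR1 probe sets were at -0.84 (called) and -0.81 (adjusted p = 0.0668). The call of the main probe set was lost without any 1 DMSO replicate or without SRPIN803 replicate 3 (adjusted p up to 0.134). JUN, an AP-1 subunit in the same list, was not called by its main probe set, 201464_x_at, at -0.32 ± 0.08 (adjusted p = 0.0840). However, 2 of its 4 probe sets fell, 201466_s_at by 0.61 (adjusted p = 0.0265) and 201465_s_at by 0.57 (0.0212), and the mean of all 4 was called at -0.46 (0.00720). In all 4 the treated arrays lay below the controls. Some uncalled genes are given for their roles, chosen after their values were seen (RB1, JUN, FOXO1, FOXO3, MYC and CDKN1A). FOXO1 was at 0.35 ± 0.08 (adjusted p = 0.0695), FOXO3 at -0.21 ± 0.10 (0.387) and MYC at 0.04 ± 0.07 (0.863). The other FOXO1 probe sets were at 0.10 and 0.09, and the mean of all was at 0.18 (limma's adjusted p = 0.227). The other FOXO3 probe sets were at -0.45, -0.32 and -0.20. In these FOXO3 probe sets the treated arrays lay below the controls, and none was called. The probe set at -0.45, 204131_s_at, read 9.48, 9.03 and 9.61 in SRPIN803, so SRPIN803 replicate 2 was low alone there too.

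The other 4 lists had 0 genes called by limma, and those with an unadjusted p under 0.05 numbered 3 of 9, 2 of 4, 4 of 8 and 0 of 2 in the order that follows, against 17.1% of all genes. In the cyclin E and CDK2 list, with 0 of 9 called, the smallest p were those of CCNH and MNAT1, subunits of the kinase that activates CDKs. CCNH was at 0.30 ± 0.06 (adjusted p = 0.0627) and MNAT1 at 0.29 ± 0.08 (0.113). Of the 4 other CDK inhibitor genes, CDKN2D, which encodes the INK4 protein p19, was at -0.35 ± 0.12 (adjusted p = 0.206), CDKN3 at 0.24 ± 0.10 (0.307) and CDKN1A, which encodes p21, at 0.09 ± 0.08 (0.680). The dim probe set 213586_at of CDKN2D was at 0.13, and the mean of the CDKN2D probe sets at -0.11. Of 8 genes for turnover and assembly of D cyclins and p27, SKP2, which marks p27 for destruction, was at 0.31 ± 0.08 (adjusted p = 0.109) and FBXO31 at -0.21 ± 0.06 (0.151). The CCNG2 relative CCNG1 was at 0.03 ± 0.07 (adjusted p = 0.909) and CCNI at -0.05 ± 0.07 (0.823).

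**Figure D5:**
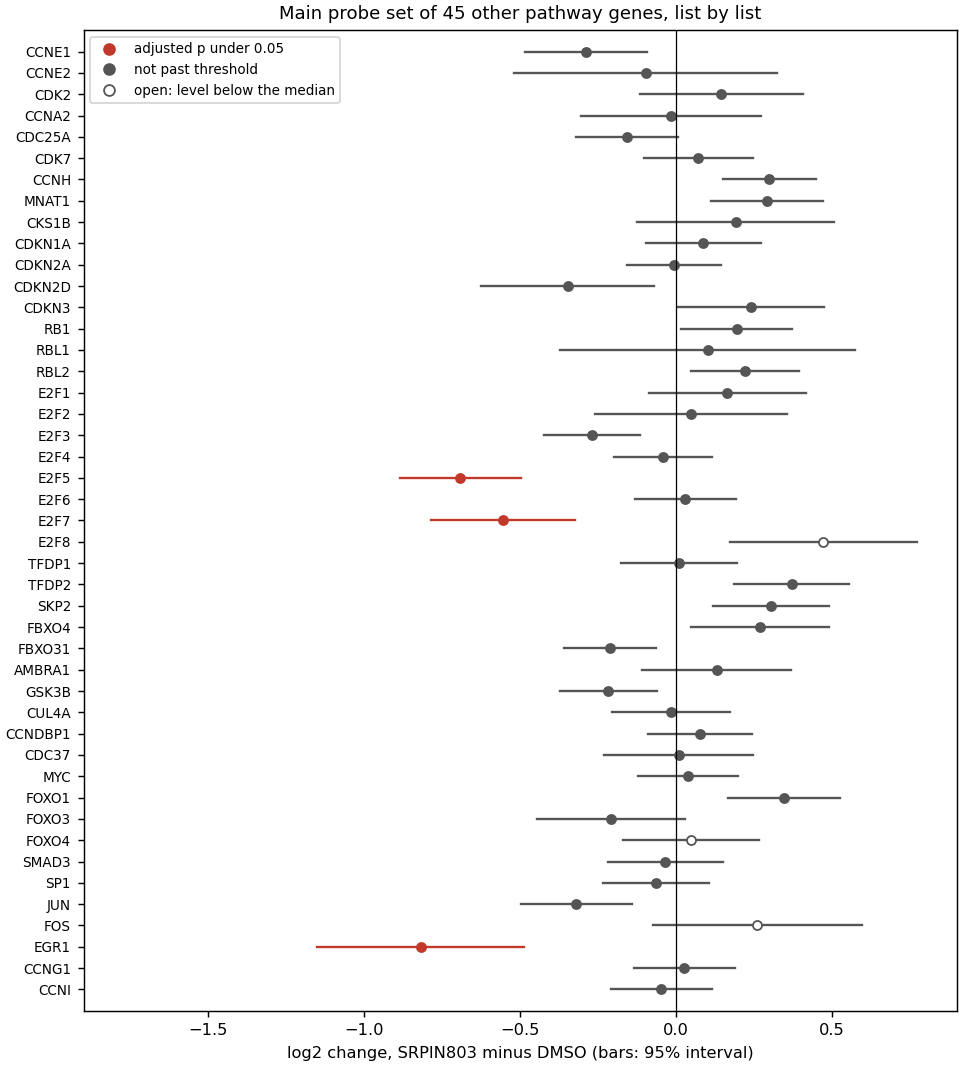
Log2 change from DMSO to SRPIN803 (x axis) of the main probe set of 45 other pathway genes (y axis, in the order of the 6 lists), with limma's 95% intervals. Red points (E2F5, E2F7 and EGR1) passed an adjusted p of 0.05, all of them lower, and open points lie below the median level.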

How the data were processed

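The deposited table holds log2 values, 1 per probe set and array, which the authors made with RMA according to the submitters' processing notes. This method corrects background, normalizes between arrays and summarises probes. The program behind it and its settings were not given in the sources used here. Values were used as deposited. Gene names came from the platform annotation, where 41091 of 54613 probe sets that are not controls named 1 gene.

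The comparison used lmFit and eBayes of limma 3.58.1 (R 4.3.3) with a term for group and 4 residual degrees of freedom. Two-sided p-values were adjusted by Benjamini-Hochberg over all probe sets. For diffSplice, probe sets under the median level or ending in _x_at were left out. Array number, 3 per group, limits precision, and an exact permutation test cannot go below p = 0.1.

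On simulated data with 200 changed probe sets among 54613, limma recovered 67% at a log2 change of 0.5 and 99% at 1, with 4.60% false calls. diffSplice recovered 72% and 99% of 200 genes among 5535, with 9.04% false calls.

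Members and lists were chosen with earlier results of these data known. Every member was named. Each pathway list gave its called genes (up to 4), or else the 2 with the smallest p, and called members gave their 2 most alike genes. Alternatives covered a replicate block, each array left out, normalization, variance model, array weights, an actin covariate, dim probe sets, thresholds and the value per gene. Promoter windows came from RefSeq.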

Additional observations from a re-analysis of the deposited data

How the results depend on the processing

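The 4 CCNG2 calls among member probe sets held under every alternative, except that 1 of the 4 was not in the fit at the 75th percentile level, which left 3. CCNG2 was the 1 member with a called main probe set under all of them, with log2 changes of 1.06 to 1.15, or 0.96 for the mean of its probe sets. No alternative moved the median change of all probe sets by over 0.1. Small uncalled log2 changes turned sign without DMSO replicate 3 or SRPIN803 replicate 1, in CCND1 (-0.0585 to 0.0563 with 1 array left out) and CDK6 (-0.0433 to 0.0608), and CDKN2B was at 0.0236 with the mean of its probe sets. The count of other pathway genes called, 3, was 0 to 3 with 1 array left out, 11 with a variance trend (robust or not) or on probe sets above the median level, 13 above the 75th percentile level, 0 at an adjusted p of 0.01, 8 at 0.1, 8 with 1 probe set per gene and 6 when probe sets of a gene were averaged. The level filters and the values per gene leave fewer features to test, and the variance model is also refitted on those features. Limma's standard error for CDK4, for example, was 0.0686 in the main fit, 0.057 above the median level and 0.0494 above the 75th percentile level. The cause of the differences between these counts was not tested. The count of members whose probe sets moved apart, 1 (CCNG2), was 0 to 1 with 1 array left out, and 0 with the replicate block (adjusted p = 0.0510), median centring, the 75th percentile level (where 228081_at is not in the fit) or an adjusted p of 0.01. It stayed 1 under the other alternatives, among them no filter on the level (5 CCNG2 probe sets, Simes adjusted p = 3e-06). The replicate block left 4 member probe sets and 1 main probe set called and 2 other pathway genes (E2F5 and EGR1, not E2F7). Same-numbered arrays correlated in their deviations at 0.14, -0.07 and 0.07, so the numbers do not show a pairing. Over all 54613 probe sets 1214 were called, 304 with the block and 215 to 716 with 1 array left out. A variance trend gave 2731 and a robust one 2997, and there were 206 at an adjusted p of 0.01 and 2492 at 0.1. Above the median level 2667 of 27307 probe sets were called, and above the 75th percentile level 2206 of 13654. Of 19775 genes, 1154 were called with 1 probe set per gene and 886 with probe sets averaged, beside 578 main probe sets in the main fit. The counts of pathway genes stand beside these. Limma recovered 67% of changes of 0.5 in the test on simulated data, so a smaller change of a member can have been missed.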
